A study of Mus musculus and Homo sapiens with 34 samples.

Results

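The genes described here are those of the MHC class II antigen-presentation pathway, including the invariant chain gene Cd74. They were taken by symbol: 7 in mouse (Cd74, Ciita, H2-Aa, H2-Ab1, H2-Eb1, H2-DMa and H2-DMb1) and 8 in human (CD74, CIITA, HLA-DRA, HLA-DRB1, HLA-DPA1, HLA-DPB1, HLA-DMA and HLA-DMB). These are 15 genes of the 48431 with a row in at least 1 of the 7 count tables. RNA sequencing of poly(A) RNA was done on 34 libraries, which form 17 groups of 2 replicates, from cultured lung adenocarcinoma cells. The study asked how the lineage regulator HNF4α and the inhibitors trametinib and MRTX1133 shape the identity of these cells.

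The mouse cultures all carry p53frt and Rosa-FSF-CreERT2, which give a recombinase-deleted p53 and a Cre that works only with tamoxifen. The 3154 organoids also carry Hnf4aflox. One experiment gave them ethanol or 4-hydroxytamoxifen (4OHT, 2 mM as labelled) for 2 days and took RNA 2 weeks later; 4OHT removes Hnf4a. In another, of 48 h, they had ethanol or 4OHT, each with vehicle or with 3 nM of the small-molecule inhibitor MRTX1133. For that experiment no time since 4OHT was recorded here. Below, 48 h therefore names the experiment and is not a stated age of the deletion. The 1027B organoids and the 3311 cell line carry Foxa1flox and Foxa2flox in place of Hnf4aflox, and no deletion of these is named for the libraries used. The 1027B organoids had vehicle, 10 nM trametinib (a MEK inhibitor) or 20 nM MRTX1133 for 48 h, and the 3311 cells had vehicle or 50 nM trametinib for 48 h. The human adenocarcinoma cell lines H358 and H1651 had vehicle or 20 nM trametinib for 48 h. H1651 with a lentiviral construct for HNF4α had 1 µg/mL doxycycline or none for 7 days. Each mouse culture is 1 line, and nothing in the labels says that replicates came from separate cultures, so p-values measure only the spread between these libraries, which may be technical.

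MHC class II molecules show peptides from endosomes to CD4+ T cells. An α and a β chain assemble on the invariant chain, which is the product of Cd74. Endosomal proteases then cut the invariant chain down, and the DM heterodimer exchanges the remaining fragment for a peptide. CIITA is the co-activator that turns the class II genes on. It does not bind DNA itself but docks on the RFX, CREB and NF-Y factors, which sit on X and Y boxes just before these genes. Interferon gamma induces CIITA. Professional antigen-presenting cells make class II all the time, and alveolar type 2 cells of the lung are among the epithelial cells known to make it too. CD74 at the cell surface is also a receptor for the cytokine MIF.

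The X and Y boxes are shown for the α chain gene H2-Aa and the β chain gene H2-Eb1, as examples of letters that class II promoters are known to share. No level could be set beside them, since H2-Aa had 0 counts wherever it had a row and H2-Eb1 was not analysed. RefSeq promoters (GRCm38.p6, 250 bases before the start) were at hand for H2-Aa, H2-Eb1, H2-DMb1 and, with 2 entries, H2-DMa. Both stretches end before the transcription start and run 5′ to 3′ on the gene's strand. They lie at chr17:34287855-34287919 on the minus strand for H2-Aa and at chr17:34305761-34305824 on the plus strand for H2-Eb1. Capitals mark the X box letters CTNGNAAC and the Y box letters ATTGG.
H2-Aa: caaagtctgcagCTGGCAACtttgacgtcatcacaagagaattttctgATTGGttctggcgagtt
H2-Eb1: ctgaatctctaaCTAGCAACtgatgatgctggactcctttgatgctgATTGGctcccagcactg

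The X box began 84 bases before the start of H2-Aa and 94 bases before that of H2-Eb1, with 28 and 27 bases between it and the Y box. H2-DMb1 had the same arrangement, with the X box 97 bases before the RefSeq start and 28 bases to the Y box. In GENCODE M21 that gene starts further upstream, and there this stretch overlaps one of its exons. No such pair was found in the 2 entries of H2-DMa. These X box letters were chosen after the sequences were read. The letters set down earlier, CCNNGNAAC, were found 98 bases before H2-DMb1, where they overlap CTNGNAAC, and 231 bases before 1 start of H2-DMa. They were not found before H2-Aa or H2-Eb1. The pair of CTNGNAAC followed by ATTGG on the same strand with 10 to 30 bases between was present in 0.244% of 32851 promoters. The like pair of CCNNGNAAC and ATTGG was present in 0.31%. Searched on both strands, CTNGNAAC alone was present in 10.9%, CCNNGNAAC in 12.6%, ATTGG in 33.8% and the X2 letters TGACG in 17.8%. TGACG was found between the X and Y boxes of H2-Aa on both strands, the 2 matches overlapping, and not in the window of H2-Eb1. A match is a run of letters, not a measured binding site.

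**Figure D1:**
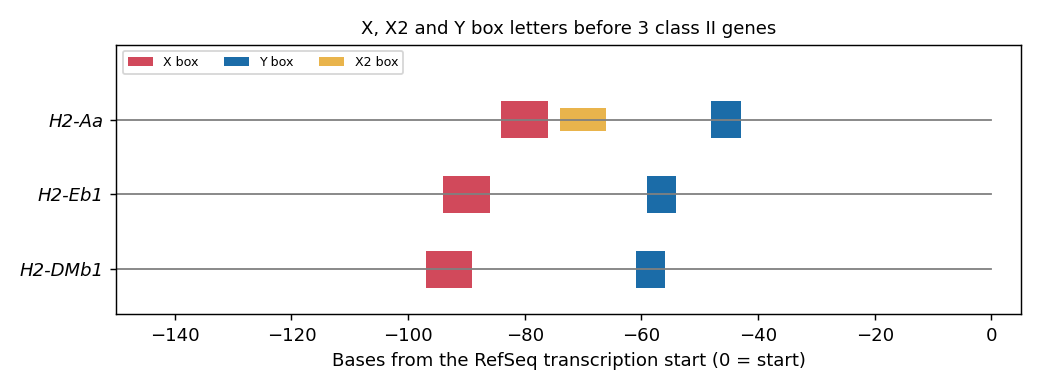
Positions of the X box letters (CTNGNAAC), the X2 letters (TGACG) and the Y box letters (ATTGG) in bases before the RefSeq start of 3 mouse class II genes. In each gene the Y box follows the X box by 27 or 28 bases, and X2 letters lie between them in H2-Aa.

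Total counts per library ran from 19692517 to 45284286, so that 3 counts, taken as the floor of detection, correspond to 0.0645 to 0.162 CPM. CPM here is the count relative to the library total, scaled by TMM within 1 table. Levels in different tables were not scaled together and are set side by side only as a description. Hnf4a fell on deletion in all 3 comparisons (log2 changes -2.61, -2.18 and -2.72); these are whole-gene counts, and reads from floxed exons were not counted apart. Hnf4a also fell in 1027B with trametinib (-1.01) and with MRTX1133 (-0.76), and in 3154 with 4OHT when MRTX1133 was added (-0.86). HNF4A rose with doxycycline in H1651 (log2 change 1.20) and had 0 counts in every H358 library. All 5 epithelial markers on the list used here (such as Epcam and Krt8) were above 3 counts in every library, but their levels differed between cultures. In vehicle, EPCAM had a mean of 1.66 CPM in H1651 and 747 CPM in H358. CDH1 and KRT19 were also lower in H1651 vehicle than in H358 vehicle, while KRT8 and KRT18 were higher. The 8 alveolar type 2 markers were listed in 3154 and 1027B and 5 of them in 3311. In bulk RNA, fewer cells of a type and less RNA per cell cannot be told apart. Of 16 leukocyte markers, 6 to 8 were listed in each mouse table, and their summed level ran from 3.34 to 46.0 CPM.

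Not every member could be tested. Of 7 mouse members, 5 had a row in the 2-week 3154 experiment and 3 of them passed the filter on low counts. At 48 h in 3154, 3 of 7 had a row and 3 passed, in 1027B 4 and 3, and in 3311 4 and 4. H2-Ab1 and H2-Eb1 had no row in the mouse tables and were not analysed here. H2-Aa had a row in the 2-week table alone, with 0 counts in all 4 libraries, a limit of 0.0985 to 0.135 CPM across these libraries that covers counting error only. H2-DMb1 was not analysed in the 48-hour 3154 table. In human cells 6 of 8 members passed the filter in H358 and 2 of 8 in each H1651 table.

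Cd74 rose wherever Hnf4a had been deleted and wherever 1027B or 3311 had trametinib or MRTX1133, always from a low level. In 3154 organoids sampled at 2 weeks, it had 3 and 5 counts in ethanol (0.0989 and 0.225 CPM) and 99 and 128 counts in 4OHT (3.25 and 4.80 CPM). The groups did not overlap, and both 4OHT libraries were more than an order of magnitude above both ethanol libraries. Its mean went from 0.162 ± 0.0889 CPM to 4.02 ± 1.09 CPM (SD, n = 2), a log2 change of 4.66 (SE 0.52, adjusted p = 0.0118 by edgeR's quasi-likelihood test with Benjamini-Hochberg adjustment over all genes of the table). This was 1 of 3 tested members called at an adjusted p under 0.05, where 9.81% of 14492 tested genes were called. The call held in all alternatives, with a log2 change of 4.12 to 5.28 over the fits that left out 1 library, the highest being that without the second ethanol library.

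At 48 h with vehicle, Cd74 had 5 and 1 counts in ethanol (0.210 and 0.0420 CPM) and 23 and 29 in 4OHT (0.872 and 1.29 CPM). The groups did not overlap. The log2 change was 3.04 (SE 0.77, edgeR adjusted p = 0.0199), and the ratio of the counts was 8.46 with a 95% counting interval from 3.64 to 24.1. Here 2 of 3 tested members were called, both higher, beside 31% of all tested genes. The adjusted p of Cd74 rose to 0.0547 without replicate 1 and 0.103 without replicate 2 of 4OHT with vehicle, and to 0.0546 without replicate 2 of ethanol with vehicle. The log2 change itself was 2.32 without the last of these and 4.52 without replicate 1 of ethanol with vehicle.

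In the presence of MRTX1133 the same deletion comparison gave 19 and 4 counts of Cd74 in ethanol (0.727 and 0.161 CPM) and 57 and 72 in 4OHT (2.25 and 2.56 CPM). Both 4OHT libraries were again above both ethanol libraries, and the 2 ethanol libraries differed from each other by more than the 2 4OHT libraries did. The log2 change was 2.41 (SE 0.57, edgeR adjusted p = 0.0171). Cd74 was 1 of 3 tested members called, beside 27.7% of all tested genes. Without 1 library the adjusted p was 0.0700 (4OHT with MRTX1133, replicate 1), 0.0902 (replicate 2 of that group) or 0.0596 (ethanol with MRTX1133, replicate 2). The log2 change was 1.71 without that last library and 3.87 without replicate 1 of ethanol with MRTX1133.

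Read the other way, the 8 libraries give the effect of 3 nM MRTX1133 with and without Hnf4a, and these comparisons share their libraries with those above. In ethanol the log2 change of Cd74 was 1.79 (95% interval -0.20 to 3.78, edgeR adjusted p = 0.476) and the 2 groups overlapped. It ran from 0.31 (without replicate 1 of ethanol with MRTX1133) to 3.27 (without replicate 1 of ethanol with vehicle) when 1 library was left out. In 4OHT it was 1.16 (95% interval -0.03 to 2.34, adjusted p = 0.255), with both MRTX1133 libraries above both vehicle libraries. Fitted on the 4 libraries of 4OHT alone, the latter passed the threshold (adjusted p = 0.0153). With MRTX1133, edgeR called 0 of 3 tested members in ethanol and 0 of 3 in 4OHT, none of them with an unadjusted p under 0.05 and none called by DESeq2, while 0.349% and 4.64% of all tested genes were called. The interaction of deletion with MRTX1133 was -0.64 for Cd74 (95% interval -2.94 to 1.67, adjusted p = 0.961). For this interaction edgeR called 0 members and 0% of 15458 genes (1150 genes at an unadjusted p under 0.05), and DESeq2 called 0 members and 36 genes.

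In the 1027B organoids Cd74 had 29 and 28 counts in vehicle (1.40 and 1.52 CPM), 190 and 119 with trametinib (8.46 and 5.55 CPM) and 151 and 71 with MRTX1133 (5.61 and 3.54 CPM). The 2 vehicle libraries lay close together and below all 4 treated ones, while the trametinib and MRTX1133 libraries overlapped. Trametinib gave a log2 change of 2.26 (SE 0.36, edgeR adjusted p = 0.00613) and MRTX1133 one of 1.65 (SE 0.36, adjusted p = 0.0454). Each drug called 1 of 3 tested members, beside 26.7% of all tested genes for trametinib and 6.27% for MRTX1133. The trametinib call held in all alternatives. The MRTX1133 call was lost without any 1 of the 4 libraries compared (adjusted p from 0.0730 to 0.212) and in a fit of those 4 alone (0.0627). Both comparisons use the same vehicle libraries. Set against each other, MRTX1133 minus trametinib was -0.61 (95% interval -1.38 to 0.16, adjusted p = 0.411). In that comparison edgeR called 0 of 3 members (none at an unadjusted p under 0.05, none by DESeq2) and 0% of 14555 genes (2357 at an unadjusted p under 0.05, and 712 called by DESeq2).

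In the 3311 line, at a higher trametinib concentration, Cd74 had 17 and 13 counts in vehicle (0.632 and 0.518 CPM) and 136 and 49 with trametinib (4.88 and 1.86 CPM). Both treated libraries were above both controls, and they differed from each other by more than the controls did. The log2 change was 2.54 (SE 0.57, edgeR adjusted p = 0.0129). Cd74 was 1 of 2 members called of 4 tested, both higher, beside 39% of all tested genes. Its adjusted p was 0.0540 and 0.0522 without vehicle replicate 1 and 2, and 0.100 without trametinib replicate 1, where the log2 change was 1.68.

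**Figure D2:**
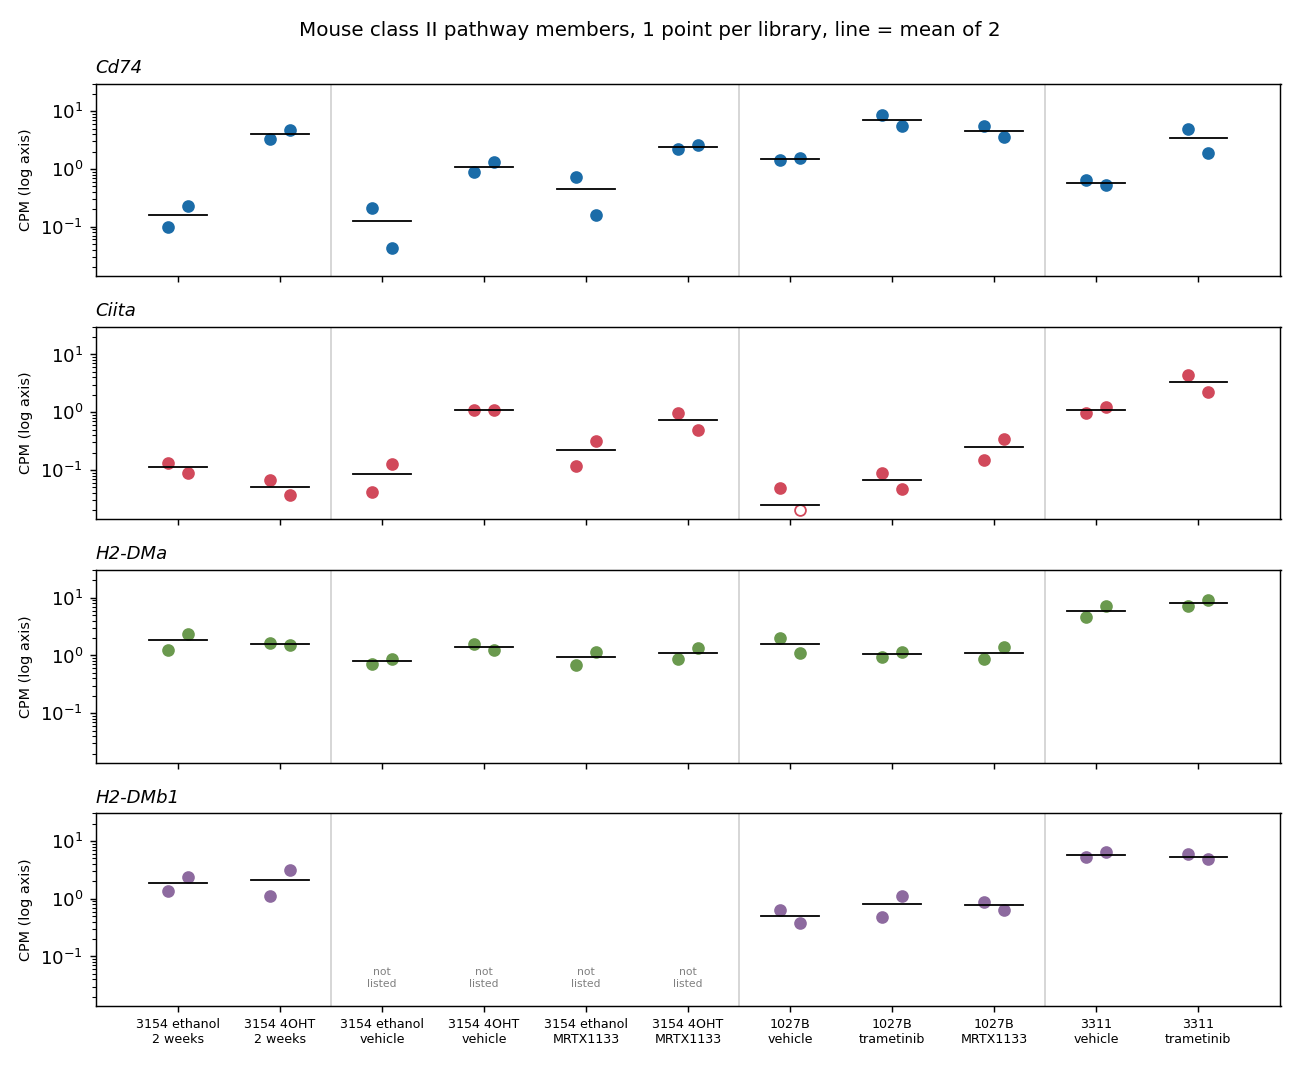
TMM-scaled CPM (log axis) of 4 mouse members in each of the 22 mouse libraries, with 1 point per library, a line at the mean of 2 and an open circle at the lower edge for 0 counts. Cd74 is higher in both 4OHT libraries than in both matching ethanol libraries and in every inhibitor-treated 1027B and 3311 library than in its vehicle libraries, while neither H2-DMa nor H2-DMb1 is called in any mouse comparison.

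Ciita, the co-activator of the class II genes, did not follow Cd74 everywhere. At 48 h with vehicle it had 1 and 3 counts in ethanol (0.0421 and 0.126 CPM) and 29 and 24 in 4OHT (1.10 and 1.07 CPM). Its groups did not overlap, and the log2 change was 3.62 (SE 0.67, edgeR adjusted p = 0.00597). The count ratio was 12.9 with a 95% counting interval from 4.76 to 49.2, and the call held in all alternatives, with a log2 change of 4.53 without replicate 2 of ethanol with vehicle. With MRTX1133 the same deletion gave 3 and 8 counts in ethanol and 25 and 14 in 4OHT, a log2 change of 1.74 (95% interval 0.41 to 3.08) that was not called (edgeR adjusted p = 0.0572). It ran from 1.18 to 2.62 when 1 library was left out. The difference between the changes with vehicle and with MRTX1133, the interaction, was -1.87 (95% interval -4.11 to 0.36, edgeR adjusted p = 0.762). It ran from -2.79 to -0.99 when 1 library was left out.

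At 2 weeks Ciita had 4 and 2 counts in ethanol and 2 and 1 in 4OHT, below the filter. The count ratio was 0.460 with a counting interval from 0.0745 to 2.16, so these libraries give no direction, although Cd74 in the same libraries rose. In 1027B it had 1 and 0 counts in vehicle, 2 and 1 with trametinib and 4 and 7 with MRTX1133. The ratio to vehicle was 2.67 (0.215 to 140) for trametinib and 9.16 (1.33 to 394) for MRTX1133, and neither was tested across genes. The 3311 line had more: 26 and 31 counts in vehicle (0.966 and 1.23 CPM) and 121 and 58 with trametinib (4.34 and 2.21 CPM). The groups did not overlap, and Ciita rose with a log2 change of 1.57 (SE 0.45, edgeR adjusted p = 0.0321). That call was lost without vehicle replicate 1 (adjusted p = 0.115), vehicle replicate 2 (0.0587) or trametinib replicate 1 (0.300). In the annotation (GENCODE M21, GRCm38) Ciita lies at 10480059 to 10528418 on the plus strand of chromosome 16, and 3.45% of its exon bases lie opposite exons of Dexi. The kit marks strand, but whether the counting used it is not given in the sources used here.

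The DM genes make the peptide-exchange heterodimer, and neither H2-DMa nor H2-DMb1 was called in any mouse comparison. In the 48-hour experiment with vehicle, H2-DMa had 17 and 21 counts in ethanol (0.715 and 0.881 CPM) and 41 and 28 in 4OHT (1.55 and 1.25 CPM). These groups did not overlap, and the log2 change of 0.81 (95% interval -0.05 to 1.68) had an adjusted p of 0.138 by edgeR. In the remaining tests its log2 change ran from -0.57 (trametinib in 1027B, adjusted p = 0.400) to 0.49 (trametinib in 3311, adjusted p = 0.225). H2-DMb1 ran from -0.13 (trametinib in 3311, adjusted p = 0.746) to 0.65 (trametinib in 1027B, adjusted p = 0.438). Their intervals were wide, that of H2-DMb1 at 2 weeks running from -1.27 to 1.63, where the 2 4OHT libraries had 34 and 84 counts (1.12 and 3.15 CPM). Both had more counts in 3311 than elsewhere: vehicle libraries had 4.65 and 7.05 CPM of H2-DMa and 5.20 and 6.41 CPM of H2-DMb1, and trametinib libraries 7.28 and 9.17 CPM of H2-DMa and 5.84 and 4.79 CPM of H2-DMb1. H2-DMa lies at 34119541 to 34139101 and H2-DMb1 at 34153072 to 34160230 on the plus strand of chromosome 17 (GRCm38), and 10.4% of the exon bases of H2-DMa lie opposite exons of Brd2. H2-DMb1 has a near-identical neighbour, H2-DMb2, so reads may have been split between them.

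Per kilobase of exon, the order of the members differed between cultures. In 3311 vehicle the levels were 3.46 ± 0.509 CPM per kilobase for H2-DMb1, 1.70 ± 0.493 for H2-DMa, 0.342 ± 0.0480 for Cd74 and 0.115 ± 0.0199 for Ciita (SD, n = 2). With trametinib Cd74 reached 2.01 ± 1.27 CPM per kilobase, a level whose spread covers that of H2-DMa (2.39 ± 0.388). In 1027B with trametinib Cd74 was the highest, at 4.17 ± 1.22 CPM per kilobase against 0.305 ± 0.0474 for H2-DMa and 0.479 ± 0.265 for H2-DMb1. In 3154 at 2 weeks Cd74 stood at 0.0963 ± 0.0529 in ethanol, below H2-DMa at 0.527 ± 0.231, and at 2.40 ± 0.652 in 4OHT, above H2-DMa at 0.466 ± 0.0281. At 48 h the order of Cd74 in 3154, from 0.0751 ± 0.0709 in ethanol with vehicle, through 0.265 ± 0.239 in ethanol with MRTX1133 and 0.645 ± 0.178 in 4OHT with vehicle, to 1.43 ± 0.130 in 4OHT with both, had overlapping libraries only between the 2 lowest groups.

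In H358 cells given trametinib 5 of 6 tested members were called, all higher, beside 46.8% of all tested genes. Only 2 were called without the first trametinib library. The median log2 change of the 6 was 1.77 against 0.02 over all tested genes. CD74 had 14 and 10 counts in vehicle (0.363 and 0.299 CPM) and 127 and 29 with trametinib (2.73 and 1.14 CPM), a log2 change of 2.58 (SE 0.48, edgeR adjusted p = 0.00317). The groups did not overlap, and the first treated library was higher than the second.

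The α chain gene HLA-DRA had 7 and 2 counts in vehicle (0.181 and 0.0597 CPM) and 55 and 9 with trametinib (1.18 and 0.353 CPM), and rose with a log2 change of 2.70 (SE 0.70, edgeR adjusted p = 0.0142). The β chain gene HLA-DRB1 had 33 and 22 counts in vehicle (0.855 and 0.657 CPM) and 112 and 36 with trametinib (2.41 and 1.41 CPM), and rose by 1.36 (SE 0.35, adjusted p = 0.0141). Neither gene's groups overlapped. HLA-DRB1 has close copies among the DRB genes, so its counts are uncertain. HLA-DPA1 had 0 and 0 counts in vehicle and 7 and 0 with trametinib. HLA-DPB1 had 0 and 0 against 7 and 3. Every count of HLA-DPA1 thus came from the first trametinib library, and neither gene was tested across genes.

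HLA-DMA had the most counts of any member in H358, with 146 and 85 counts in vehicle (3.78 and 2.54 CPM) and 784 and 298 with trametinib (16.8 and 11.7 CPM). The groups were far apart, and the log2 change was 2.18 (SE 0.26, edgeR adjusted p = 0.000335). Its partner HLA-DMB had 11 and 11 counts in vehicle (0.285 and 0.328 CPM) and 40 and 18 with trametinib (0.859 and 0.707 CPM), a log2 change of 1.37 (SE 0.37, adjusted p = 0.0166). DESeq2 did not call HLA-DMB (adjusted p = 0.150), and edgeR did not without either vehicle library (0.115 and 0.0632). CIITA had 41 and 31 counts in vehicle (1.06 and 0.926 CPM) and 145 and 31 with trametinib (3.12 and 1.22 CPM). Both treated libraries were above both controls, but the second barely so. The log2 change of 1.17 (SE 0.43) missed the threshold (edgeR adjusted p = 0.0539). It passed without the count filter (0.0218) and with the replicate number as a block. All 8 members were higher in the first trametinib library than in the second. Without that first library 2 members were called, CD74 (log2 change 1.77) and HLA-DMA (1.89), while HLA-DRA (log2 change 1.49, adjusted p = 0.220), HLA-DRB1 (0.90, adjusted p = 0.117) and HLA-DMB (1.21, adjusted p = 0.135) were not, and the log2 change of CIITA was 0.30. That of HLA-DRA was 3.67 without the first vehicle library.

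**Figure D3:**
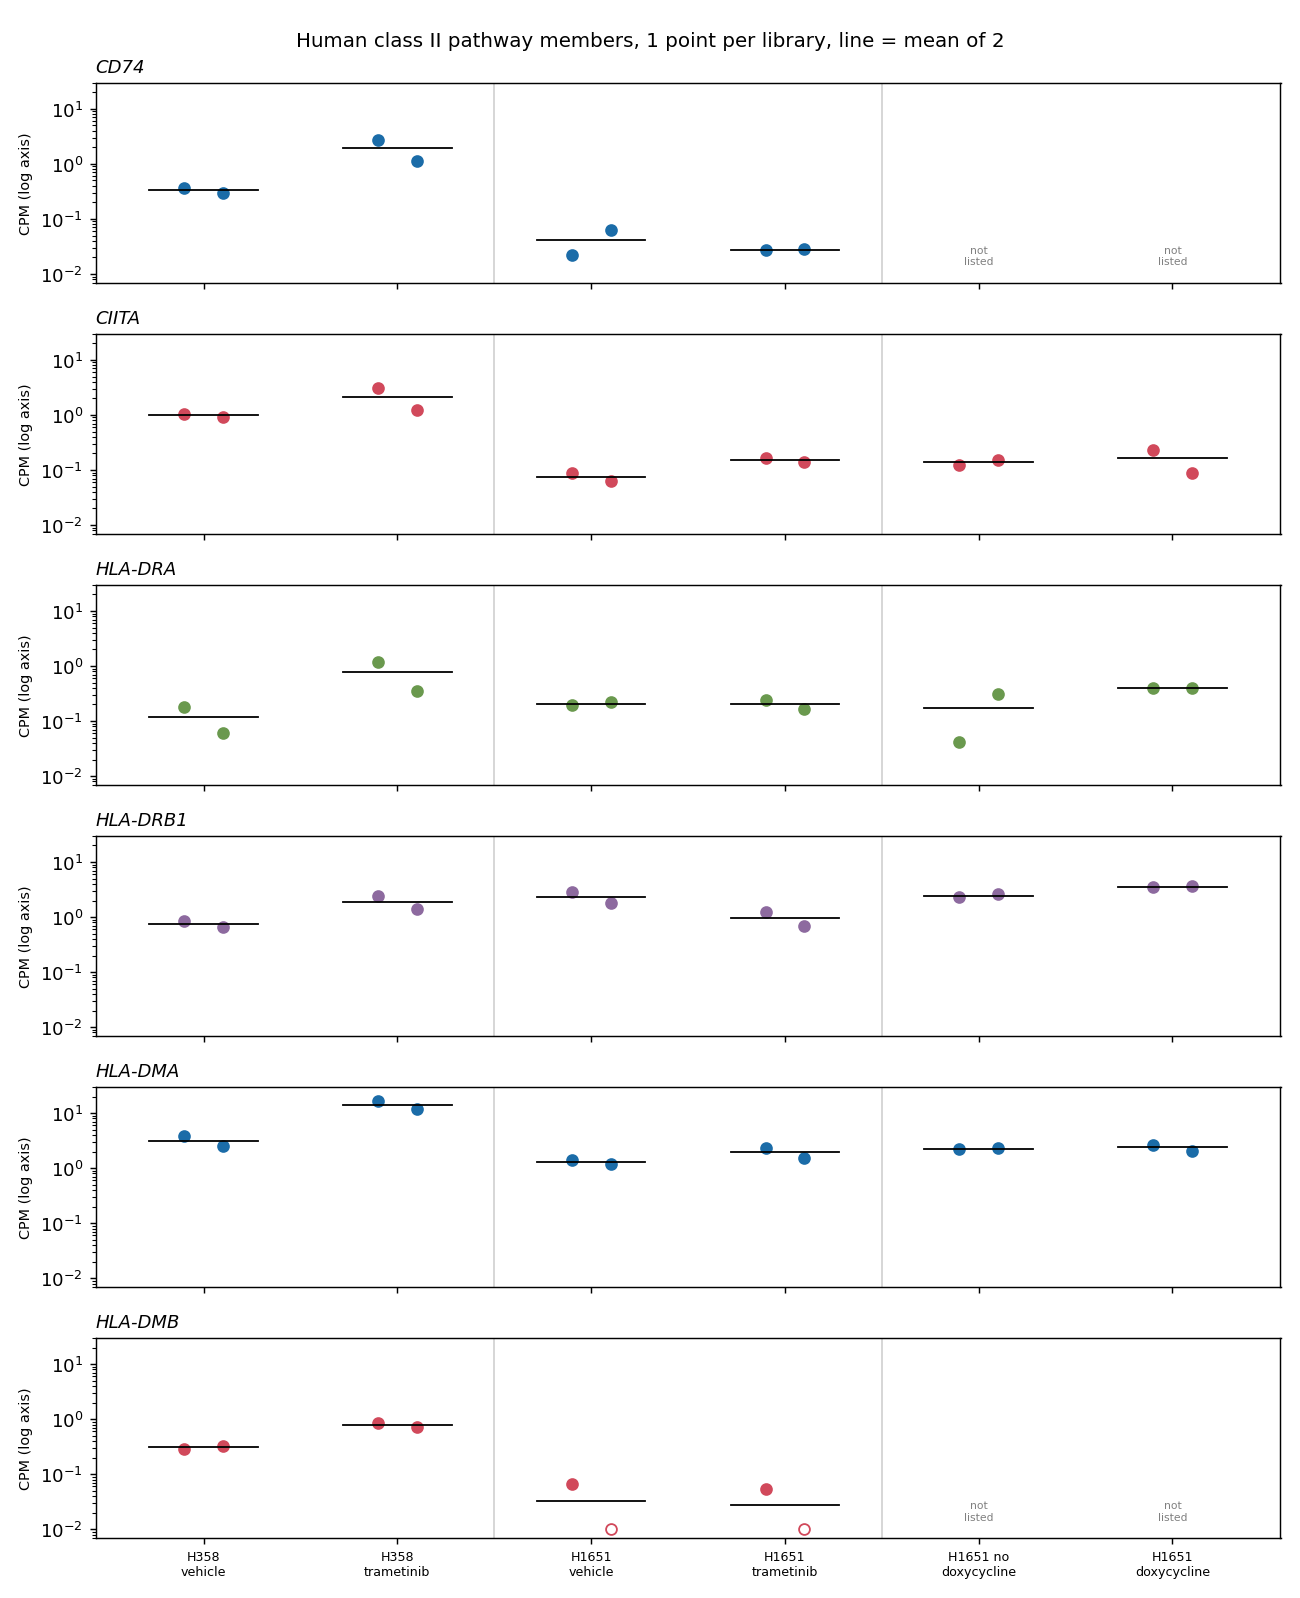
TMM-scaled CPM (log axis) of 6 human members in each of the 12 human libraries, with 1 point per library, a line at the mean of 2 and an open circle at the lower edge for 0 counts. In H358 both trametinib libraries lie above both vehicle libraries for every gene shown, and in H1651 HLA-DRB1 is lower in both trametinib libraries than in both vehicle libraries.

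In H1651 most members were near the floor. CD74 had 1 and 2 counts in vehicle and 1 and 1 with trametinib, HLA-DRA 9 and 7 against 9 and 6, and CIITA 4 and 2 against 6 and 5. HLA-DMB had 3 and 0 counts against 2 and 0, HLA-DPA1 1 and 0 against 0 and 0, and HLA-DPB1 0 and 0 against 3 and 0. HLA-DRB1 was present, with 132 and 57 counts in vehicle (2.90 and 1.77 CPM) and 46 and 25 with trametinib (1.25 and 0.701 CPM). The groups did not overlap, the treated libraries being lower. The log2 change was -1.27 (95% interval -2.30 to -0.23, unadjusted p = 0.0252 and adjusted p = 0.999 by edgeR). With the replicate number as a block edgeR called this fall of HLA-DRB1, but no label says what that number marks. HLA-DMA had 65 and 38 counts in vehicle and 87 and 54 with trametinib, a log2 change of 0.56 (95% interval -0.23 to 1.35, adjusted p = 0.999). In this table edgeR without a block called 0 of 2 members (1 at an unadjusted p under 0.05, 0 by DESeq2) and 0% of 18277 genes (597 at an unadjusted p under 0.05, 47 called by DESeq2).

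H358 and H1651 had the same dose and time of trametinib and their tables list the same genes, so the difference between their responses was tested in 1 fit over the 8 libraries, a comparison added after the data were seen. It called 2 of 6 tested members, HLA-DRB1 and HLA-DMA, beside 19.3% of 21188 tested genes. The log2 change of HLA-DRB1 in H1651 minus that in H358 was -2.65 (SE 0.59, edgeR adjusted p = 0.0160), and that of HLA-DMA was -1.64 (SE 0.45, adjusted p = 0.0358). CD74 (-3.05, 95% interval -6.53 to 0.43, edgeR adjusted p = 0.204) and HLA-DRA (-2.72, 95% interval -5.10 to -0.34, adjusted p = 0.107) were not called. With 1 library left out they ran from -3.68 to -2.21 for CD74 and from -3.72 to -1.48 for HLA-DRA. HLA-DRA was called with the replicate number as a block. No member was called without the first H358 trametinib library or the second H358 vehicle library, and 1 was called, HLA-DRB1, without H1651 vehicle replicate 1 or H1651 trametinib replicate 2. The libraries of the 2 lines come from separate tables, so line and table cannot be told apart.

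Doxycycline in H1651 raised HNF4A from a mean of 41.5 ± 7.89 to 95.6 ± 1.73 CPM. That is opposite in direction to the deletion in 3154, but in human cells that already had HNF4A RNA. CD74, HLA-DPA1, HLA-DPB1 and HLA-DMB had no row in that table and were not analysed. HLA-DRB1 had 56 and 68 counts without doxycycline (2.31 and 2.60 CPM) and 88 and 82 with it (3.46 and 3.62 CPM). The treated libraries were higher without overlap, and the log2 change was 0.53 (95% interval 0.02 to 1.04, unadjusted p = 0.0443 and adjusted p = 0.372 by edgeR). HLA-DMA had 54 and 60 against 68 and 47 counts (log2 change 0.08, adjusted p = 0.942). HLA-DRA had 1 and 8 against 10 and 9 counts, and CIITA 3 and 4 against 6 and 2, both below the filter. Of 2 tested members edgeR called 0 (1 at an unadjusted p under 0.05, 0 by DESeq2), beside 1.42% of all tested genes.

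**Figure D4:**
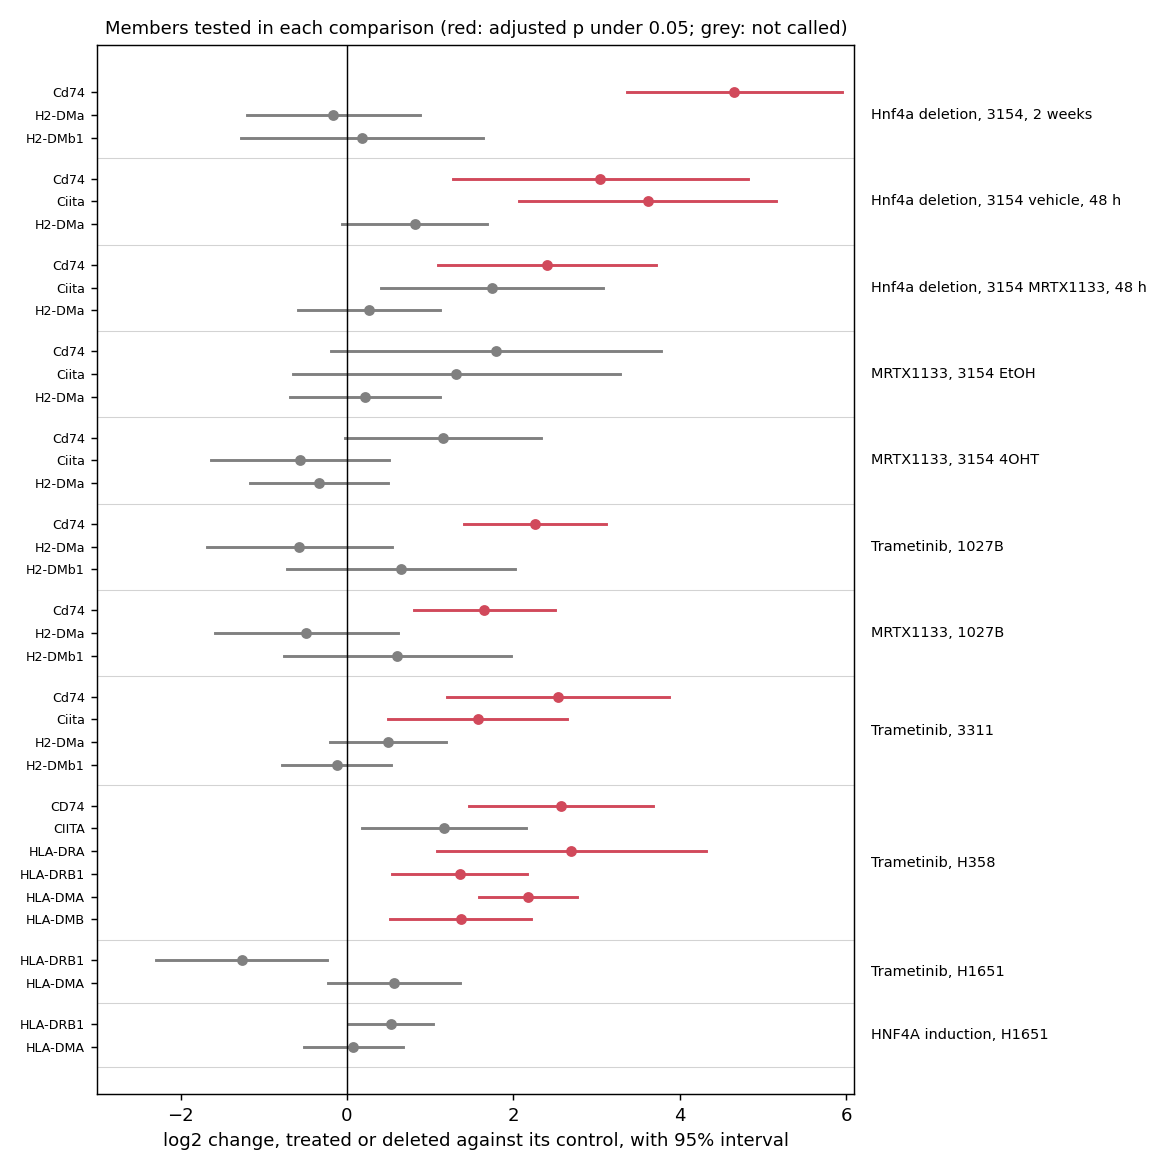
Log2 change with its 95% interval (x axis) of each member that passed the count filter, by comparison, with called members in red and the others in grey. Cd74 or CD74 is called in 7 of the comparisons plotted, always higher, and of the DM genes plotted only HLA-DMA and HLA-DMB in H358 are. Tests of one inhibitor or line against another, and of the interaction, are not plotted.

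Each count over a gene list is to be read against the share of all tested genes called in the same comparison. That share was 9.81% for deletion at 2 weeks, 31% and 27.7% for deletion at 48 h with vehicle and with MRTX1133, and 0.349% and 4.64% for MRTX1133 in ethanol and in 4OHT. It was 26.7% and 6.27% for trametinib and MRTX1133 in 1027B, and for trametinib 39% in 3311, 46.8% in H358 and 0% in H1651, and it was 1.42% for doxycycline. The factors that hold CIITA on class II promoters (RFX, NF-Y and CREB1 genes, 7 in all) passed the count filter in every table, and at most 3 of them were called in any comparison. On deletion at 48 h 2 of 7 were called in vehicle, both lower, beside 31% of all tested genes. Rfxap fell from 23.8 ± 1.92 to 14.0 ± 1.67 CPM (log2 change -0.77, edgeR adjusted p = 0.00655) and Nfyb from 55.4 ± 3.37 to 38.0 ± 0.757 CPM (-0.54, adjusted p = 0.0120). The same 2 were called lower with MRTX1133, beside 27.7% of all tested genes. Nfyb also fell in 1027B with trametinib (log2 change -0.71) and with MRTX1133 (-0.48), as did NFYB in H358 (-0.68), where it was the only 1 of 7 called, beside 46.8% of all tested genes. In 3311 Nfyc rose (1.81), as did Rfxank (0.83), while Creb1 fell (-0.70), and in 1027B Nfyc rose with trametinib (0.45). At 2 weeks edgeR called 0 of 7, with 0 at an unadjusted p under 0.05 and 0 by DESeq2. It also called 0 of 7 with MRTX1133 in ethanol, with trametinib in H1651 and with doxycycline (1 at an unadjusted p under 0.05 and 0 by DESeq2 in each), and with MRTX1133 in 4OHT (0 and 0).

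Of 9 endosomal processing genes, which cut the invariant chain and antigens, of which 8 or 9 were tested in each table, the called ones were not the same from culture to culture. On deletion at 48 h with vehicle, 2 rose and 4 fell, beside 31% of all tested genes called. Among them Ctsl rose from 143 ± 14.4 to 255 ± 36.8 CPM (log2 change 0.83, edgeR adjusted p = 0.00508). Ctss had 24 counts in ethanol and 1 in 4OHT, a ratio of 0.0407 (counting interval 0.000989 to 0.249), and Ifi30 fell (-0.62). With MRTX1133, 3 rose and 1 fell, beside 27.7% of all tested genes called, with Ctsl (1.24) and Ctsh (0.79) higher and Ifi30 (-0.43) lower. At 2 weeks Ctsh rose (0.61) and Ifi30 fell (-0.97). Lgmn was the only one called with either drug in 1027B, from 88.4 ± 7.03 to 222 ± 20.9 CPM with trametinib (log2 change 1.33, edgeR p after adjustment 0.00104) and to 163 CPM with MRTX1133 (0.88), and the only one with MRTX1133 in 4OHT (0.78). In 3311 Ctsh (0.82) and Sppl2a (0.49) rose. In H358, 6 of 9 were called, all higher, beside 46.8% of all tested genes. Cathepsin S, the main protease for the invariant chain in many antigen-presenting cells, rose there (CTSS, from 15.5 ± 2.76 to 84.8 ± 8.50 CPM, 2.45, adjusted p = 2.14e-05), with CTSH (2.00) and CTSD (0.70). In H1651 edgeR called 0 of 9 with trametinib (1 at an unadjusted p under 0.05) and 0 of 9 with doxycycline (2), and DESeq2 called 0 in each.

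Of the genes for partners and ligands of surface CD74 (Mif, Ddt, Cd44, Cxcr2 and Cxcr4), Mif fell in some of the comparisons in which Cd74 rose. It fell on deletion at 48 h from 867 ± 6.88 to 419 ± 27.5 CPM with vehicle (log2 change -1.05, edgeR adjusted p = 0.000787) and from 764 ± 39.6 to 286 ± 14.6 CPM with MRTX1133 (-1.41, adjusted p = 0.000286). It fell with trametinib in 3311 (-0.79), and MIF fell in H358 (-1.27). In 1027B, where Cd74 rose, Mif stood at 530 ± 56.4 CPM in vehicle and 575 ± 59.5 CPM with trametinib (adjusted p = 0.548). Cd44, which signals with Cd74, fell with trametinib in 3311 (-2.02) and in H358 (-1.05) and rose on deletion with MRTX1133 (0.60). Over these 5 genes, 2 of 3 tested were called on deletion with vehicle, both lower (Mif and Ddt, -0.46), beside 31% of all tested genes. On deletion with MRTX1133, 1 higher and 1 lower of 3 were called, beside 27.7%. In 3311, 1 higher (Ddt, 0.71) and 2 lower of 3 were called, beside 39%. In H358, 2 lower of 4 were called, beside 46.8%. With MRTX1133 in 4OHT 1 of 3 was called, Mif (-0.55), beside 4.64%. At 2 weeks edgeR called 0 of 4 (2 at an unadjusted p under 0.05, 2 by DESeq2), and in 1027B with trametinib 0 of 3 (1 and 1).

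Among genes of T cell costimulation and checkpoints, the adhesion gene Icam1 rose with Cd74 in 6 comparisons: deletion at 48 h with vehicle (log2 change 1.20) and with MRTX1133 (1.06), trametinib (1.37) and MRTX1133 (0.81) in 1027B, and trametinib in 3311 (1.76) and in H358 (0.94). On deletion at 2 weeks, where the log2 change of Cd74 was 4.66, that of Icam1 was 0.97 (edgeR adjusted p = 0.185). Cd274, which encodes PD-L1, fell in 1027B with trametinib (-1.65) and MRTX1133 (-1.44), and CD274 fell in H358 (-0.92). Pdcd1lg2, which encodes PD-L2, had 4 counts over both ethanol libraries and 28 over both 4OHT libraries with vehicle (ratio 6.83, counting interval 2.39 to 26.8), and 2 and 23 with MRTX1133 (ratio 11, counting interval 2.71 to 95.9), and was called higher in both. The costimulation calls came to 2 higher of 4 tested in each deletion comparison at 48 h. All tested genes called there were 31% with vehicle and 27.7% with MRTX1133. In 1027B 1 higher and 1 lower of 3 were called with either drug, beside 26.7% for trametinib and 6.27% for MRTX1133. The same numbers were called in 3311, beside 39%, where Icosl fell (-0.97). In H358 1 higher and 1 lower of 5 were called, beside 46.8%. At 2 weeks edgeR called 0 of 4 (2 at an unadjusted p under 0.05, 1 by DESeq2), beside 9.81%. Marchf8, a ligase that marks surface receptors for turnover, rose on deletion at 48 h (0.54 with vehicle, 0.56 with MRTX1133), with trametinib in 1027B (1.12) and 3311 (1.04), and in H358 (0.69). At 2 weeks it stood lower in both 4OHT libraries than in both ethanol libraries (107 ± 5.87 against 130 ± 1.78 CPM, log2 change -0.29, edgeR adjusted p = 0.179). The other genes of the class II locus could be tested in human tables only, where edgeR called 0 of 3 in H358 (1 at an unadjusted p under 0.05), 0 of 3 with trametinib in H1651 (0) and 0 of 2 with doxycycline (0), and DESeq2 called 0 in each.

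Cells that make class II by trade would bring their own markers, and these were read beside the members. At 48 h Ptprc, the pan-leukocyte marker, had 2 and 5 counts in ethanol with vehicle and 15 and 10 in 4OHT with vehicle (log2 change 1.76, edgeR adjusted p = 0.0540), and summed leukocyte markers went from 5.68 and 5.83 to 5.65 and 7.37 CPM. With MRTX1133 it had 3 and 2 counts in ethanol and 3 and 8 in 4OHT, and the sums were 6.43 and 3.34 against 10.1 and 10.7 CPM, with Lyz2, which alveolar type 2 cells also make, as the 1 marker called (2.52). At 2 weeks the sum was 18.8 and 46.0 CPM in ethanol and 10.7 and 14.3 CPM in 4OHT, and Csf1r fell (-2.58). In 1027B Ptprc fell with trametinib, from 37 and 20 counts to 5 and 4 (log2 change -2.78, adjusted p = 0.0356), while Csf1r (2.58) and Cd74 rose. In 3311 Ptprc was at 0 counts in all 4 libraries, the summed leukocyte markers went from 10.3 and 16.5 to 22.9 and 29.3 CPM, Csf1r rose (1.55) and Cd68 fell (-1.83). In H358 PTPRC rose from 6 and 7 to 34 and 15 counts (log2 change 1.87, adjusted p = 0.00741), LYZ rose (2.20) and LAPTM5 (-5.06) and CORO1A (-1.16) fell, and the summed leukocyte markers went from 62.0 and 52.8 to 23.9 and 25.1 CPM. In H1651 PTPRC had 69 to 81 counts at 48 h. It had 59 and 65 counts without doxycycline and 30 and 16 with it (log2 change -1.37, adjusted p = 0.115). Stromal and endothelial genes changed in some of these comparisons. Col1a1, a fibroblast collagen gene, rose on deletion with MRTX1133 (1.89, edgeR adjusted p = 0.0286) and in 3311 (1.62, adjusted p = 0.0195), where Pdgfra fell (-0.84). Pecam1, an endothelial gene, fell at 2 weeks (-1.37, adjusted p = 0.0394). In H358 COL1A1 (1.88), COL3A1 (3.41) and CDH5 (3.57) rose. Of 5 epithelial markers there, KRT18 (-1.58), KRT8 (-1.04) and EPCAM (-0.68) fell and CDH1 rose (1.05). Krt18 fell in 3311 (-1.43), and in 1027B with trametinib Krt19 fell (-0.58) and Cdh1 rose (0.56). With doxycycline in H1651 COL3A1 fell (-0.84, adjusted p = 0.00387) and KRT8 (0.44) and KRT18 (0.42) rose. The part of such RNA in the results for the members was not tested.

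Alveolar type 2 cells are among the lung cells known to make Cd74, and their markers were called in differing numbers and directions. On deletion at 48 h with vehicle 4 of 8 were called, all higher, led by Napsa (log2 change 1.00) and Abca3 (0.97), beside 31% of all tested genes. With MRTX1133 only Napsa (0.88) was called, beside 27.7%. At 2 weeks edgeR called 0 of 8 (2 at an unadjusted p under 0.05, 1 by DESeq2), beside 9.81%. MRTX1133 in 4OHT raised Sftpc (1.73) and lowered Sftpb (-0.76). Trametinib in 1027B called 2 higher and 4 lower, beside 26.7% of all tested genes, with Sftpc at 4.01, Sftpa1 at -3.76 and Lamp3 at -3.34. MRTX1133 there raised Sftpc (2.60) and lowered Lamp3 (-2.63). In 3311, where 2 were tested, Sftpb fell (-3.82). In H358 4 of 5 tested markers rose, beside 46.8% of all tested genes called, led by SLC34A2 (4.57) and ABCA3 (1.73).

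The genes whose levels were most like that of Cd74 across libraries were found by Pearson's r of log2(CPM + 0.5) among genes with a mean of at least 5 CPM. Over the 8 libraries of the 48-hour 3154 table they were Lamb3 (r = 0.996), Ttc7b (0.990), Washc2 (0.989), Cog1 (0.989) and Mbd1 (0.989), out of 10410 genes. Over the 6 libraries of 1027B they were 4632415L05Rik (0.998), Glrx2, Zfp397, Neo1 and Large2 (0.996 to 0.997), out of 10492 genes. No gene is in both lists of 5. Among the members, Ciita had an r of 0.675 and H2-DMa of 0.348 with Cd74 in 3154, and H2-DMb1 of 0.418 and H2-DMa of -0.679 in 1027B. These libraries share their treatments, so the values describe the pattern and test nothing.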

How the data were processed

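The authors deposited raw read counts per Ensembl gene in 7 tables, with no normalization, per the file headers and values. Per the submitters' processing notes, cutadapt 3.5, STAR 2.7.6a and featureCounts 1.6.3 and the builds mm10, mm39 and hg38 were used; which mouse build served which table, and whether counting used strand, are not given in the sources used here. The columns of the 3311 table name treatment and replicate but no cell line and were assigned by the table's name.

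Each table was fitted in R 4.3.3 with edgeR 4.0.16 (filterByExpr, TMM, quasi-likelihood F-test, Benjamini-Hochberg over all tested genes). A gene was called at an adjusted p under 0.05. Groups of 1 table shared 1 estimate of the spread. Exact permutation of 2 against 2 libraries cannot reach 0.05, so every p comes from these fits. Count ratios carry 95% exact counting intervals, limited to counting error. Simulated data with known changes were used to test the scripts. Promoter letters came from RefSeq. Positions and exon lengths came from GENCODE M21.

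Alternatives were DESeq2 1.42.0, RLE factors, no filter, the 2 groups alone, the replicate number as a block, and each library left out. The members, lists and naming rule (every member, of each list up to 3 called genes of largest change, Hnf4a, and the 5 genes most like Cd74) were chosen with earlier results of these data known. Some items are not reported here.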

Additional observations from a re-analysis of the deposited data

Results flagged for a closer look

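HLA-DRB1 lay on opposite sides of its controls with trametinib in the 2 human lines. Every treated H358 library was above its controls (log2 change 1.36). Every treated H1651 library was below its controls (-1.27, edgeR adjusted p = 0.999). That fall was not called in the main fit but was with the replicate number as a block, and no label says what that number marks. The H358 rise was not called without the first trametinib library (adjusted p = 0.117). The difference itself was tested, in a comparison added after the data were seen, and was past the threshold for HLA-DRB1 (H1651 minus H358 -2.65, edgeR adjusted p = 0.0160), and also for HLA-DMA (-1.64, adjusted p = 0.0358), whose log2 change was 2.18 in H358 and 0.56 in H1651. Without 1 library the adjusted p ran from 0.0108 to 0.0696 for HLA-DRB1 and from 0.0284 to 0.128 for HLA-DMA.

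Ciita in 3154 was higher in both 4OHT libraries than in both ethanol libraries at 48 h with vehicle (log2 change 3.62). At 2 weeks both 4OHT libraries lay below both ethanol libraries in CPM, but with 4 and 2 counts in ethanol against 2 and 1 in 4OHT (count ratio 0.460, counting interval 0.0745 to 2.16) these give no direction. The difference between the experiments was not tested, and for the 48-hour experiment no time since 4OHT was recorded here.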

How the results depend on the processing

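No log2 change of a tested member changed sign with DESeq2, RLE factors, no count filter, the replicate block or a fit of the 2 groups alone, and RLE factors changed no call. In the fit of the 2 groups alone, 1 member was called with MRTX1133 in 3154 with 4OHT and 0 in 1027B. Numbers of members called when 1 library was left out ran from 1 to 2 for deletion with vehicle at 48 h, 0 to 1 for deletion with MRTX1133, 0 to 0 for MRTX1133 in 1027B, 0 to 2 for trametinib in 3311, 2 to 6 in H358 and 0 to 3 for H1651 against H358. In those fits 1 arm holds a single library, which is assumed to vary like the other groups. The replicate block moved the H1651 trametinib count from 0 to 1, HLA-DRB1 (log2 change -1.26, edgeR adjusted p = 2.95e-05), and called CIITA in H358 (adjusted p = 0.00380) and HLA-DRA in H1651 against H358 (0.0464), and changed no other call. Same-numbered libraries deviated together with an r of 0.243 to 0.414 between the 3 pairs of groups in 1027B, of -0.251 to 0.549 in the 48-hour 3154 table, and of 0.427, 0.126, 0.318, 0.623 and 0.318 in the 2-week 3154, 3311, H358, H1651 trametinib and doxycycline tables, and no label says what a number marks.

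Leaving out 1 library also turned the sign of uncalled log2 changes. For H2-DMa these ran from -0.58 to 0.36 at 2 weeks, -0.094 to 0.68 for deletion with MRTX1133, -0.21 to 0.52 for MRTX1133 in ethanol, -0.85 to 0.039 for MRTX1133 in 1027B and -0.30 to 0.41 for MRTX1133 against trametinib. For H2-DMb1 they ran from -0.75 to 0.74 at 2 weeks, -0.051 to 1.13 for trametinib and -0.53 to 0.66 for MRTX1133 against trametinib in 1027B, and -0.28 to 0.030 in 3311. The Cd74 interaction ran from -2.12 to 0.83, HLA-DMA with doxycycline from -0.12 to 0.24, and in H1651 against H358 CIITA from -0.74 to 0.67 and HLA-DMB from -5.07 to 1.83. The cause of these moves was not tested. Low counts limit the members below the filter, for which no fit was made.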
